A study of Homo sapiens with 27 samples.

Results

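The 10 enzymes that make serine from a glycolytic intermediate and pass its one-carbon unit through the folate cycle were followed across 9 groups of human cell line libraries. They were PHGDH, PSAT1, PSPH, SHMT1, SHMT2, MTHFD1, MTHFD2, MTHFD1L, MTHFD2L and ALDH1L2, taken by gene symbol from the 67130 genes listed in each of 2 tables of raw counts. SHMT1 is listed under 2 identifiers. The second had 0 counts in all 27 libraries, so SHMT1 below is ENSG00000176974. All 10 enzymes passed the filter on low counts in every fit.

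RNA was sequenced from 27 libraries, 3 per group, of cells in which ARID1A, a subunit gene of the BAF chromatin remodelling complex, had been knocked out. The libraries labelled Huh7, a liver cancer line, were knockout cells with a stable lentiviral Flag-tagged ARID1A. The tagged ARID1A was the V2084D missense form together with knockdown of STUB1 (shSTUB1), the V2084D form alone, or the wild-type form (WT). STUB1 encodes a ubiquitin ligase that acts with chaperones. The libraries labelled 293T, an embryonic kidney line, carried V2084D, G2087E, G2087R, K2025E or WT ARID1A, or no added ARID1A (KO). The labels do not say whether the 3 replicates were separate cultures or whether a group was 1 clone. The p-values therefore measure only the spread between these samples, which may be technical, and a clone cannot be told apart from its genotype.

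Serine is made in the cytosol in a short chain from 3-phosphoglycerate, which PHGDH oxidises, PSAT1 transaminates and PSPH dephosphorylates. Serine hydroxymethyltransferases then move a carbon from serine to tetrahydrofolate, SHMT2 in mitochondria and SHMT1 in the cytosol. In mitochondria MTHFD2 or MTHFD2L oxidise the folate-bound carbon and MTHFD1L releases it as formate, while ALDH1L2 oxidises it to CO2. In the cytosol MTHFD1 takes formate up again for the synthesis of purines, thymidylate and methionine. The transcription factor ATF4, which is translated under amino acid shortage and other stress, is known to drive PHGDH, PSAT1, SHMT2 and MTHFD2.

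Total counts ran from 59124374 to 79915177 in the libraries labelled Huh7 and from 33429483 to 55539529 in those labelled 293T. None of 12 liver marker genes averaged 1 CPM (counts per 1000000) in the libraries labelled Huh7, while 2 of 12 did in those labelled 293T. The summed liver markers were 2.26 to 3.82 CPM in shSTUB1, 2.83 to 3.98 CPM in V2084D and 3.43 to 5.41 CPM in WT. Genes that mark 293 cells were present under both labels, with 8 of 10 averaging at least 1 CPM under the label Huh7 and 9 of 10 under 293T. Their sum was 254 to 306 CPM in shSTUB1 and 328 to 366 CPM in V2084D, against 719 to 755 CPM in WT, and IRS4 alone averaged 20.5, 18.99 and 456 CPM in these groups. The lower sums do not mean that the markers fell as a set. In V2084D minus WT 3 of the 9 tested rose and 3 fell (median log2 difference 0.31), where 22% of all genes rose and 20% fell. For shSTUB1 minus WT 2 rose and 3 fell (median 0.05), where 23.5% of all genes were higher and 21.7% lower. The markers thus go against the label Huh7, and which line these libraries came from is in doubt. ARID1A averaged 277 CPM in shSTUB1, 252 CPM in V2084D and 369 CPM in WT of the libraries labelled Huh7, and was lower in V2084D than in WT, at -0.55 (SE 0.18, adjusted p = 0.0325). In the libraries labelled 293T it was at least 5690 CPM in all that should carry it except G2087R replicates 1 and 2, which had 291 and 324 CPM, against 117 to 193 CPM in KO. From low to high, the WT libraries labelled 293T had 5690, 9285 and 62916 CPM of ARID1A. Its range was 42656 to 114840 CPM in V2084D, 43788 to 84609 CPM in G2087E and 13373 to 21658 CPM in K2025E. The ARID1A level thus differed within WT and, beside the genotype, between groups labelled 293T. Single libraries labelled Huh7 had 189 to 400 CPM of ARID1A, near the level of those G2087R replicates. No raised ARID1A transcript was thus seen in them. No group labelled Huh7 was without added ARID1A, so the added part cannot be read from the level. STUB1 was at 70.1, 84.1 and 67.2 CPM in shSTUB1, against 251, 248 and 296 CPM in V2084D, a log2 difference of -1.84 (SE 0.10, adjusted p = 8.78e-06). K2025E replicates 2 and 3 lay at one end of the first principal component of the libraries labelled 293T, at -104 and -66.6, and the rest lay from -40.2 to 47.8. The part of these features in the results below was not tested, except where a value without those libraries is given.

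The promoters of PSAT1 and SHMT1 are shown because PSAT1 had one of the largest changes of the 10 enzymes and SHMT1, of the same chain of reactions, did not rise beside it. Both are the bases just before the start in the RefSeq promoter table (GRCh38.p14), PSAT1 at chr9:78296875-78297124 on the plus strand and SHMT1 at chr17:18363564-18363800 on the minus strand. The SHMT1 stretch leaves out the 13 bases of the 250-base window nearest the start, which lie in an annotated exon. Capitals mark CCAAT on either strand. Another stretch, MTHFD1L at chr6:150866346-150866375 on the plus strand, holds in capitals the single TGATGNAA match, the composite site bound by ATF4 with C/EBP factors, found in the windows of the enzymes. It begins 129 and 90 bases before 2 of the 4 MTHFD1L starts in the RefSeq table and lies inside an exon of the GENCODE annotation.
PSAT1: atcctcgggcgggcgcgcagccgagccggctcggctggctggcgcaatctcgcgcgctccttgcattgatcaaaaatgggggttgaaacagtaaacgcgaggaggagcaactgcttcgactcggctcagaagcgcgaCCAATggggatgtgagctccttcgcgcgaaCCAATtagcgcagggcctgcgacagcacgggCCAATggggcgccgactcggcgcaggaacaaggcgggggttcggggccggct
SHMT1: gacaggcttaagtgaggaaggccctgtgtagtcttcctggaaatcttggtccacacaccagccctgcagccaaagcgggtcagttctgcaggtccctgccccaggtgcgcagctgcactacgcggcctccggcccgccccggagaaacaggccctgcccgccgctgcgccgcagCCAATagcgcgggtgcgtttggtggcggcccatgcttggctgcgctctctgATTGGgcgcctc
MTHFD1L: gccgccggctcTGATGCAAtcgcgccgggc
The table held windows for 7 of the 10 enzymes (PHGDH, PSAT1, SHMT1, MTHFD1, MTHFD2, MTHFD1L and MTHFD2L). Both strands were searched for 3 motifs that do not overlap each other in these windows. CCAAT, the letters bound by NF-Y, was in 6 of the 7 enzymes and in 32.0% of all 35116 windows. CACGTG, the E-box core bound by MYC and other factors, was in 2 of the 7 (MTHFD1 and MTHFD1L) and in 6.34% of all windows. TGATGNAA was in 1 of the 7 and in 3.14% of all windows. An enzyme was counted if any of its windows held a match, and MTHFD1L and MTHFD2L had several windows. The shares of all windows are counted per window, so the 2 measures are not alike. These matches describe letters in a window and say nothing of binding.

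V2084D was first set against WT in the libraries labelled Huh7. Of the 10 enzymes 7 rose and 1 fell at an adjusted p below 0.05 (edgeR quasi-likelihood test, Benjamini-Hochberg adjustment over 22510 genes), where 42% of all genes tested were called, 22% higher and 20% lower. The 3 enzymes of serine synthesis and 4 of the 5 mitochondrial folate enzymes rose, while of the 2 cytosolic enzymes none rose and SHMT1 fell. The median log2 difference over the 10 enzymes was 0.72, against 0.03 over all genes tested. The libraries of the groups did not overlap for 7 enzymes that were higher in V2084D, where this held for 28.5% of genes, and for 2 that were lower, where it held for 26.9%. In RNA from whole cultures, fewer cells with a transcript and less of it per cell cannot be told apart. Together the 10 enzymes took 0.308 to 0.310% of all counts in V2084D, against 0.173 to 0.174% in WT.

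PHGDH (ENSG00000092621, GRCh38 chromosome 1, positions 119648411 to 119744226, plus strand) catalyses the first step of serine synthesis. It had 594, 558 and 641 CPM in V2084D, against 361, 352 and 378 CPM in WT, and the groups did not overlap. The log2 difference was 0.72 (SE 0.07, adjusted p = 1.58e-05). PSAT1 (ENSG00000135069, chromosome 9, 78297143 to 78330093, plus strand), the aminotransferase of the next step, had 661, 690 and 675 CPM in V2084D, against 224, 230 and 208 CPM in WT. All 3 V2084D libraries lay far above all 3 WT libraries, and the log2 difference was 1.61 (SE 0.06, adjusted p = 7.49e-08), or 3.06-fold. PSPH (ENSG00000146733, chromosome 7, 56011051 to 56051604, minus strand), the phosphatase that yields serine, had 45.2, 46.8 and 53.2 CPM in V2084D, against 30.4, 30.4 and 26.6 CPM in WT. It was again higher without overlap, by 0.73 (SE 0.09, adjusted p = 0.000106) on the log2 scale.

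Among the mitochondrial enzymes ALDH1L2 (ENSG00000136010, chromosome 12, 105019784 to 105084577, minus strand) changed most. It had 134, 128 and 99.0 CPM in V2084D, against 33.8, 35.5 and 28.98 CPM in WT. Even the lowest V2084D library was well above the highest WT library, and the log2 difference was 1.88 (SE 0.16, adjusted p = 7.57e-06), or 3.68-fold. MTHFD2 (ENSG00000065911, chromosome 2, 74198562 to 74217565, plus strand), the main dehydrogenase and cyclohydrolase of proliferating cells, had 392, 414 and 402 CPM in V2084D, against 204, 205 and 194 CPM in WT. Its level doubled almost exactly, with a log2 difference of 1.004 (SE 0.07, adjusted p = 2.16e-06). SHMT2 (ENSG00000182199, chromosome 12, 57229327 to 57234935, plus strand) had 515, 513 and 503 CPM in V2084D, against 299, 295 and 317 CPM in WT. The replicates were tight in both groups, and the log2 difference was 0.75 (SE 0.05, adjusted p = 1.81e-06). MTHFD1L (ENSG00000120254, chromosome 6, 150865549 to 151101887, plus strand), which releases formate, had 121, 130 and 121 CPM in V2084D, against 98.3, 96.2 and 99.0 CPM in WT. This was the smallest of the 7 rises, at 0.34 (SE 0.06, adjusted p = 0.000845) on the log2 scale. All 7 rises were called under each of the 14 alternative settings.

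The other three enzymes did not rise. MTHFD2L (ENSG00000163738, chromosome 4, 74114174 to 74303099, plus strand), the second mitochondrial dehydrogenase, had 12.6, 13.2 and 12.6 CPM in V2084D, against 14.2, 14.9 and 15.1 CPM in WT. All V2084D libraries were lower, yet the log2 difference of -0.20 (SE 0.10) did not pass the test (adjusted p = 0.148). With offsets for GC content and transcript length it was lower and called, at -0.41 without and with the replicate block (adjusted p = 0.0162 and 0.0337). The cytosolic SHMT1 (chromosome 17, 18327860 to 18363563, minus strand) had 79.4, 84.5 and 83.7 CPM in V2084D, against 100, 96.8 and 101 CPM in WT. It fell by 0.27 on the log2 scale (SE 0.06, adjusted p = 0.00621), without overlap, and the call was lost with the GC and length offsets (adjusted p up to 0.0826). MTHFD1 (ENSG00000100714, chromosome 14, 64388031 to 64463457, plus strand) had 435, 460 and 402 CPM in V2084D, against 452, 451 and 456 CPM in WT. The groups overlapped and the log2 difference was -0.07 (SE 0.06, adjusted p = 0.449). Exons of 6 enzymes (ALDH1L2, MTHFD1, MTHFD2, MTHFD2L, SHMT1 and SHMT2) overlap exons of a gene on the opposite strand. Whether the counting used strand is not given in the sources used here, so reads of such partners may be included. Pseudogenes named after the enzymes reached at most 0.326% of the counts of the parent gene in any library.

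**Figure D1:**
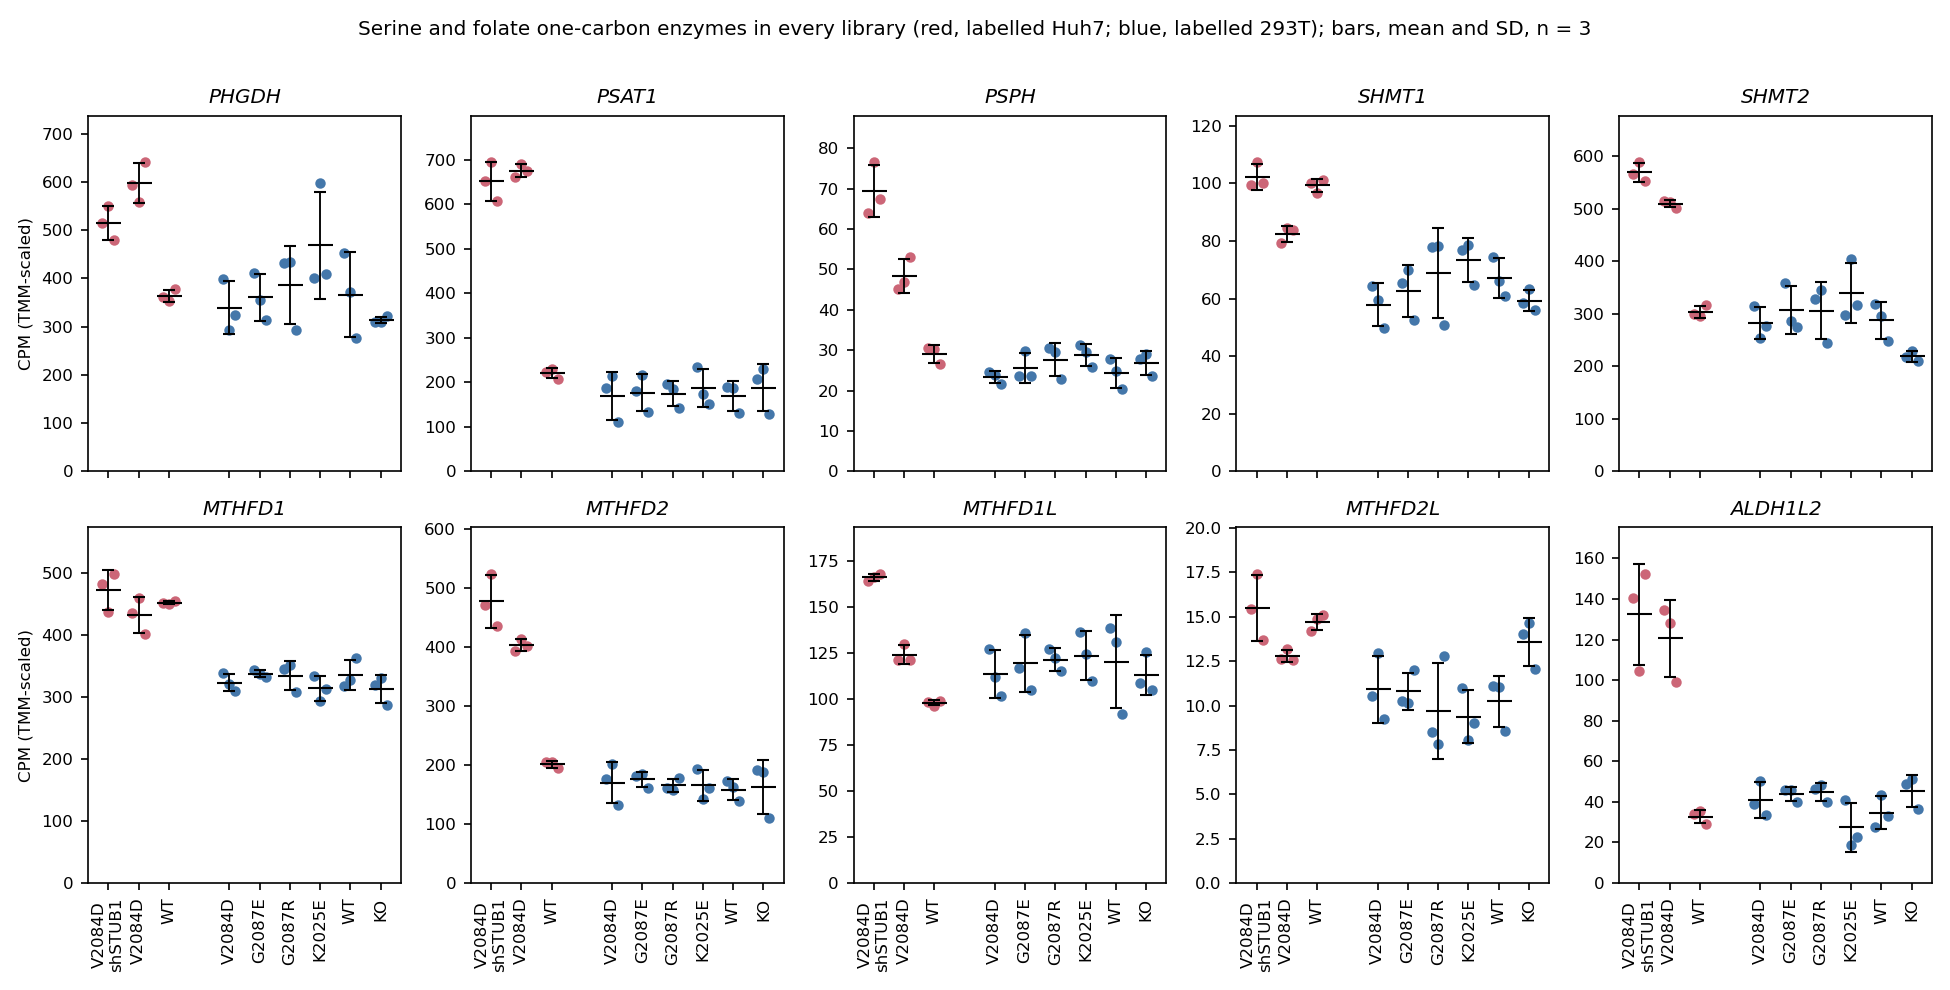
Level of each enzyme (vertical axes, TMM-scaled CPM from 0) in every library, in groups of 3 labelled Huh7 (red) and 293T (blue), with points for libraries and bars for mean and SD. The V2084D and V2084D_shSTUB1 libraries labelled Huh7 stand above WT for PSAT1 (607 to 695 against 208 to 230 CPM) and ALDH1L2. The group means labelled 293T lie close together for PSAT1 (170 to 188 CPM) and less so for ALDH1L2 (27.5 CPM in K2025E to 45.4 CPM in KO).

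V2084D with STUB1 knockdown was then set against V2084D alone in the libraries labelled Huh7. Here 5 of the 10 enzymes rose and 1 fell, where 21.5% of all genes were called, 10.8% in each direction. The median log2 difference over the enzymes was 0.20, against -0.0035 over all genes. The libraries did not overlap for 6 enzymes that were higher, where 18.3% of genes were, and for 1 that was lower, where 18.2% were. MTHFD1L had 164, 166 and 168 CPM in shSTUB1, against 121, 130 and 121 CPM in V2084D. The groups were clearly apart and the log2 difference was 0.42 (SE 0.06, adjusted p = 0.000852). PSPH had 64.0, 76.6 and 67.5 CPM in shSTUB1, against 45.2, 46.8 and 53.2 CPM in V2084D. It rose by 0.52 (SE 0.09, adjusted p = 0.00305) on the log2 scale on top of the rise of V2084D over WT. SHMT1 had 99.3, 107 and 100 CPM in shSTUB1, against 79.4, 84.5 and 83.7 CPM in V2084D. It rose by 0.31 (SE 0.06, adjusted p = 0.00672), and its 3 shSTUB1 libraries reached the range of the WT libraries. These 3 rises were called under each of the 14 alternative settings.

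MTHFD2, SHMT2 and PHGDH passed the threshold narrowly in that comparison. MTHFD2 had 471, 523 and 435 CPM in shSTUB1, against 392, 414 and 402 CPM in V2084D, a log2 difference of 0.24 (SE 0.07, adjusted p = 0.0281). SHMT2 had 567, 589 and 553 CPM in shSTUB1, against 515, 513 and 503 CPM in V2084D, a log2 difference of 0.16 (SE 0.05, adjusted p = 0.0423). PHGDH went the other way, at 515, 550 and 480 CPM in shSTUB1, against 594, 558 and 641 CPM in V2084D, and fell by 0.21 (SE 0.07, adjusted p = 0.0448). The groups did not overlap for any of the 3, but leaving out single libraries ended each call: V2084D replicates 1, 2 or 3 or shSTUB1 replicates 1 or 2 for MTHFD2 (adjusted p up to 0.110) and SHMT2 (up to 0.131), and V2084D replicates 1 or 3 or shSTUB1 replicates 1 or 3 for PHGDH (up to 0.138). With the replicate block the SHMT2 (adjusted p = 0.081) and PHGDH (0.0891) calls were lost, and with the GC and length offsets PHGDH was at -0.09 (adjusted p = 0.593). In the fit of only the groups compared all 3 calls were lost (adjusted p = 0.0647 for MTHFD2, 0.0797 for SHMT2 and 0.0862 for PHGDH). Without V2084D replicate 1, V2084D replicate 3 or shSTUB1 replicate 1, 3 enzymes in place of 6 were called. PSAT1 had 652, 695 and 607 CPM in shSTUB1, against 661, 690 and 675 CPM in V2084D, and the groups overlapped (log2 difference -0.05, SE 0.06, adjusted p = 0.612). ALDH1L2 overlapped too, at 140, 104 and 152 CPM in shSTUB1, against 134, 128 and 99.0 CPM in V2084D (0.14, SE 0.15, adjusted p = 0.603). MTHFD1 (0.13, SE 0.06, adjusted p = 0.190) and MTHFD2L (0.28, SE 0.10, adjusted p = 0.0844) did not pass the test. MTHFD2L did so without shSTUB1 replicate 3 (0.36, adjusted p = 0.0373). The GC and length offsets gave a lower PSAT1 (-0.20, adjusted p = 0.00291) and a higher MTHFD1 (0.20, adjusted p = 0.0046).

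Against WT, the V2084D libraries with STUB1 knockdown shared those WT libraries with the first comparison, so its values stand beside the first and do not add to it. Here 7 of the 10 enzymes were higher and 0 lower, where 45.1% of all genes were called, 23.5% higher and 21.7% lower. The same 7 were higher without overlap, where 28.1% of genes were, and 0 were lower, where 27.3% were. The log2 differences were 2.02 for ALDH1L2 (SE 0.16), 1.56 for PSAT1 (SE 0.06), 1.25 for PSPH (SE 0.09) and 1.25 for MTHFD2 (SE 0.07). They were 0.91 for SHMT2 (SE 0.05), 0.76 for MTHFD1L (SE 0.06) and 0.50 for PHGDH (SE 0.07), with adjusted p at most 0.000147 for all 7. SHMT1, at 0.04 (SE 0.06), MTHFD1, at 0.06 (SE 0.06), and MTHFD2L, at 0.08 (SE 0.10), did not pass the test (adjusted p from 0.466 to 0.641). With offsets for GC content and length MTHFD1 passed it (adjusted p = 0.0117 at the lowest) and so did SHMT1 (0.0365).

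**Figure D2:**
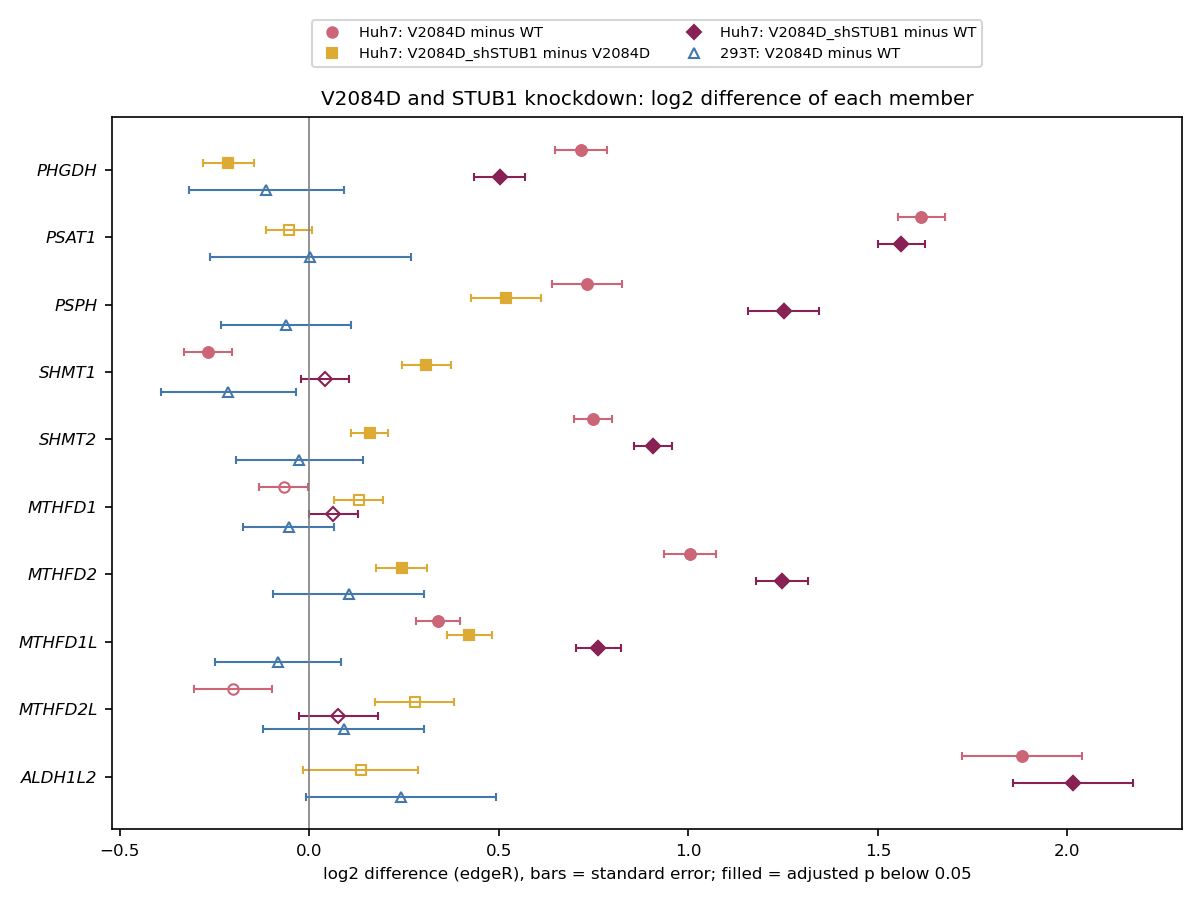
Log2 difference of each enzyme (horizontal axis, with SE bars) in the 3 comparisons of libraries labelled Huh7 and in V2084D minus WT of those labelled 293T, with filled symbols at an adjusted p below 0.05. ALDH1L2 (1.88) and PSAT1 (1.61) lie farthest right in V2084D minus WT of the libraries labelled Huh7, and no symbol of the libraries labelled 293T is filled.

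The libraries labelled 293T were compared among V2084D, G2087E, G2087R, K2025E, WT and KO in 10 comparisons. In 9 of them edgeR called 0 of the 10 enzymes. The percentage of all genes called was 0% in 6 of those 9, 0.00431% in G2087R minus WT and K2025E minus WT, and 3.57% in K2025E minus the mean of V2084D and G2087E (2.2% higher and 1.37% lower). At an unadjusted p below 0.05, 2 enzymes passed in G2087R minus KO and in K2025E minus the mean, 1 in V2084D, G2087E and WT minus KO each, and 0 in the 4 comparisons with WT. Over all 23201 genes 1001 passed at that level in G2087R minus KO and 5514 in K2025E minus the mean. DESeq2 called 1 enzyme in K2025E minus the mean and 0 in the other 8. In the 6 comparisons with no gene called by edgeR, an unadjusted p below 0.05 was reached by 467 to 2544 of the 23201 genes, and 14 to 70 were called by DESeq2.

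SHMT2 was lower in every KO library than in every library labelled with an added ARID1A. Among those, G2087R replicates 1 and 2 had ARID1A near the KO level. SHMT2 had 315, 255 and 278 CPM in V2084D, 360, 287 and 275 CPM in G2087E, 329, 345 and 244 CPM in G2087R, 297, 404 and 316 CPM in K2025E and 318, 296 and 248 CPM in WT, against 218, 230 and 209 CPM in KO. The lowest of them, in G2087R replicate 3, was just above the highest KO library. The log2 difference from KO was 0.63 in K2025E (SE 0.17), which was the 1 enzyme call among these comparisons (adjusted p = 0.0214), where 7.17% of genes were called higher and 5.72% lower. In the other groups it was 0.37 in V2084D, 0.49 in G2087E, 0.48 in G2087R and 0.39 in WT (SE 0.17 each, adjusted p from 0.405 to 0.989). These comparisons share the 3 KO libraries. Higher than KO without overlap were 7.44% of genes in V2084D, 8.93% in G2087E, 5.41% in G2087R, 16% in K2025E and 8.93% in WT. Beside SHMT2 this held for MTHFD1 in G2087E and for PHGDH and SHMT1 in K2025E. MTHFD2L was lower than KO without overlap in G2087E, K2025E and WT, where 7.53%, 14.4% and 8.59% of genes were, and no enzyme was in V2084D and G2087R, where 6.37% and 5.23% were. In K2025E the summed 293 markers were 306 to 479 CPM, against 595 to 645 CPM in KO, and 3 of their 9 tested genes fell; their part in the SHMT2 difference was not tested. The K2025E call was lost without KO replicate 1, 2 or 3 or K2025E replicate 2 or 3 (adjusted p up to 0.944 over all settings). Without the libraries labelled G2087R replicates 1 and 2 the G2087R difference was 0.15.

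PHGDH and ALDH1L2 varied most of the 10 enzymes over the 18 libraries labelled 293T, with coefficients of variation of 21.3% and 23.9%. PHGDH had 400, 597 and 409 CPM in K2025E, against 311, 309 and 322 CPM in KO, a difference of 0.58 (SE 0.21, adjusted p = 0.0707), which was 0.34 without K2025E replicate 2. PHGDH was called higher with the replicate block (0.57, adjusted p = 0.0445), with DESeq2 (0.57, adjusted p = 0.0324) and with the GC and length offsets (0.78, adjusted p = 0.0163). ALDH1L2 had 41.1, 18.7 and 22.5 CPM in K2025E, against 48.7, 51.2 and 36.4 CPM in KO, a log2 difference of -0.73 (SE 0.25, adjusted p = 0.0648). It was called lower with the replicate block (-0.72, adjusted p = 0.0478) and with DESeq2 (-0.74, adjusted p = 0.0216), and was at -0.34 (adjusted p = 0.237) with the offsets. K2025E replicate 2 was the highest of the 18 libraries for PHGDH and the lowest for ALDH1L2. Without K2025E replicate 1, 4 enzymes were called against KO, and without replicates 2 and 3, 0 were. MTHFD2L had 11, 8.09 and 9.02 CPM in K2025E, against 14.0, 14.7 and 12.1 CPM in KO, lower without overlap, with a log2 difference of -0.54 (SE 0.21, adjusted p = 0.103) that turned to 0.0585 (adjusted p = 0.869) with the GC and length offsets.

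For the remaining enzymes the group means labelled 293T lay close together. PSAT1 averaged 170 CPM in V2084D (SD 53.9), 177 in G2087E (SD 41.2), 175 in G2087R (SD 28.6), 187 in K2025E (SD 43.1) and 170 in WT (SD 33.6), against 188 CPM in KO (SD 52.4). These means differ by less than the SD within a group. MTHFD2 had group means from 158 to 175 CPM and MTHFD1L from 113 to 123 CPM. MTHFD1 was the steadiest enzyme over the 18 libraries, at 288 to 363 CPM with a coefficient of variation of 5.97%. PSPH ran from 20.5 to 31.3 CPM and SHMT1 from 49.8 to 78.6 CPM. Against WT and against the mean of V2084D and G2087E no enzyme stood clear of overlap in any group. The percentage of all genes that did, higher and lower, was 3.14% and 3.25% in V2084D, 3.66% and 3.59% in G2087E, 4.7% and 4.84% in G2087R and 3.34% and 3.66% in K2025E against WT, and 5.3% and 5.53% in K2025E against the mean. In V2084D minus WT, the comparison with a match in the libraries labelled Huh7, the log2 differences lay between -0.21 for SHMT1 and 0.24 for ALDH1L2.

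**Figure D3:**
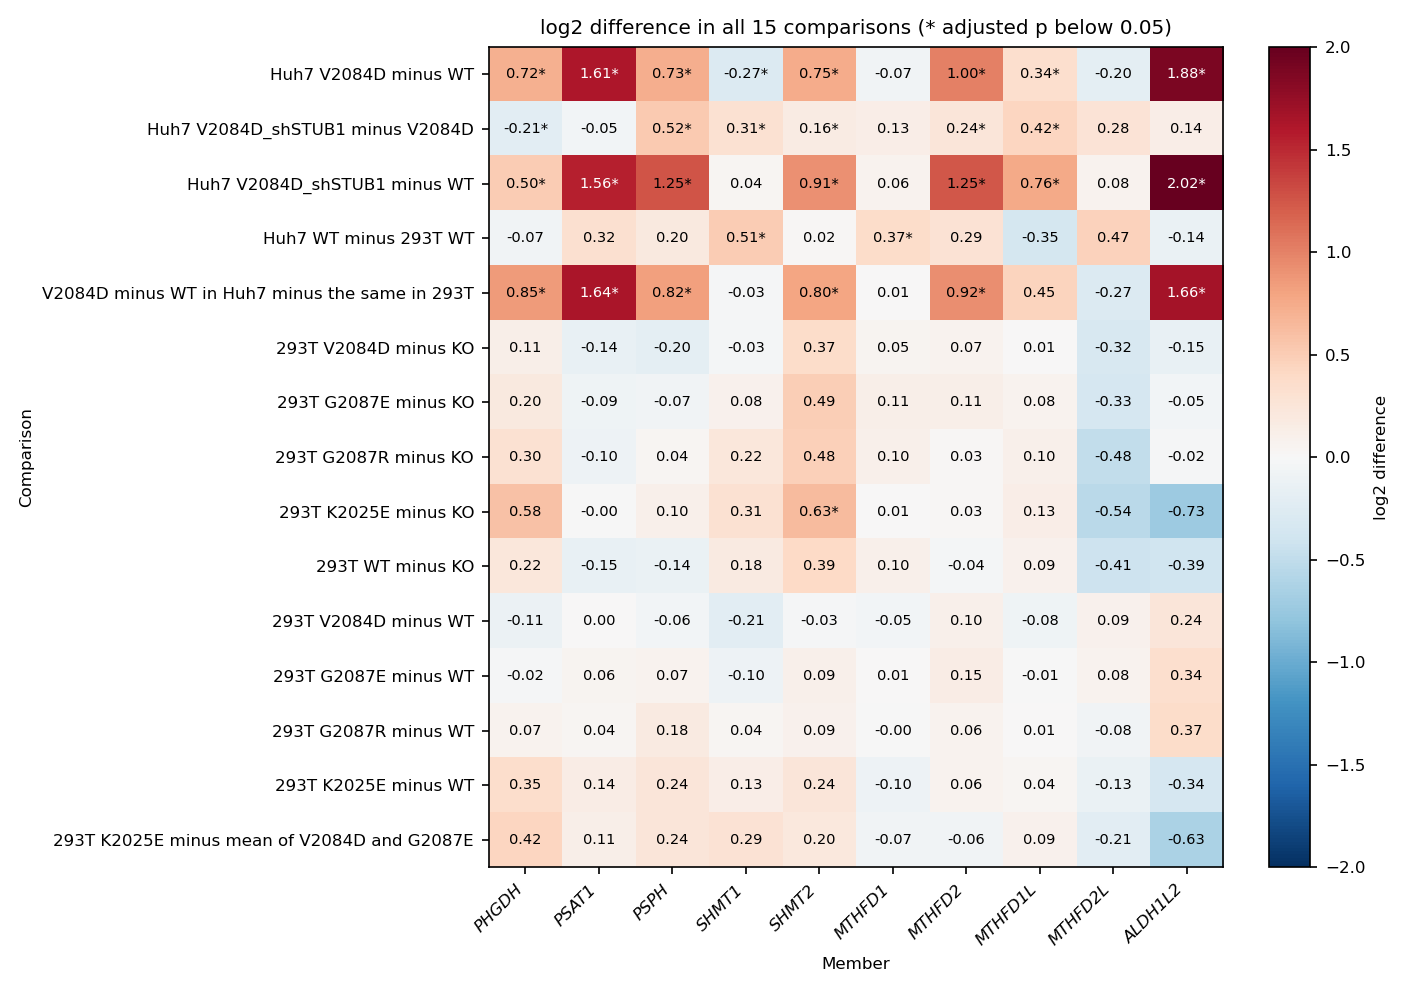
Log2 difference of the 10 enzymes (columns) in the 15 comparisons (lines of the grid), on a colour scale centred on 0, with a star at an adjusted p below 0.05. The starred values lie in the comparisons of libraries labelled Huh7 and between the labels, apart from SHMT2 in K2025E minus KO (0.63).

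V2084D minus WT was tested for a difference between the libraries labelled Huh7, where ARID1A was not raised, and those labelled 293T in 1 fit of all 27 libraries (24546 genes). It was larger in the libraries labelled Huh7 for 6 of the 10 enzymes, where 9.72% of all genes were called, 5.5% in that direction and 4.21% in the other. The difference of the differences was 1.66 for ALDH1L2 (SE 0.33, adjusted p = 0.00188) and 1.64 for PSAT1 (SE 0.32, adjusted p = 0.00191). It was 0.92 for MTHFD2 (SE 0.24, adjusted p = 0.0141), 0.80 for SHMT2 (SE 0.20, adjusted p = 0.0114) and 0.82 for PSPH (SE 0.21, adjusted p = 0.0125). PHGDH followed at 0.85 (SE 0.25, adjusted p = 0.0324). The PHGDH call was lost without any 1 of 9 libraries, namely WT replicate 1 or 2 or V2084D replicate 2 or 3 labelled 293T, and WT replicate 1, 2 or 3 or V2084D replicate 1 or 3 labelled Huh7 (0.66 to 0.89, adjusted p up to 0.110). The MTHFD2 call was lost without V2084D replicate 3 labelled 293T (0.76, adjusted p = 0.0516). MTHFD1L, at 0.45 (adjusted p = 0.150), passed the threshold without WT replicate 3 labelled 293T (0.60, adjusted p = 0.0295). SHMT1 (-0.03), MTHFD1 (0.01) and MTHFD2L (-0.27) did not pass it. Whether these are different cell lines is in doubt, and a line and everything else that differed between the 2 count tables cannot be told apart.

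Between the WT groups under the labels Huh7 and 293T the 2 cytosolic enzymes were the only ones of the 10 called by edgeR in the fit of all libraries, where 23% of genes were called, 10.5% higher and 12.5% lower. SHMT1 was higher in the WT libraries labelled Huh7 by 0.51 (SE 0.15, adjusted p = 0.0133), a call lost without 293T WT replicate 3 (0.46, adjusted p = 0.0527). MTHFD1 was higher by 0.37 (SE 0.10, adjusted p = 0.00705), a call lost with the replicate number as a block (adjusted p = 0.0806). MTHFD1L was at -0.35 (SE 0.13, adjusted p = 0.0592) and lower and called in 7 of 15 alternative settings. Among these were the replicate block (-0.43, adjusted p = 0.0368), the GC and length offsets (-0.33, adjusted p = 0.0461), DESeq2 (-0.36, adjusted p = 0.0274) and the fit without 293T WT replicate 3 (-0.50, adjusted p = 0.00777). The mitochondrial MTHFD2L was at 0.47 (adjusted p = 0.0632), a larger difference than that of MTHFD1. It did not pass the edgeR test but was called higher by DESeq2 (0.46, adjusted p = 0.0418). PSAT1, at 0.32 (SE 0.23), and ALDH1L2, at -0.14 (SE 0.23), did not pass the test. The WT libraries labelled Huh7 were above those labelled 293T without overlap for 5 enzymes (PSAT1, SHMT1, MTHFD1, MTHFD2 and MTHFD2L), where 20.9% of genes were, and below for 0, where 21.7% were.

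Levels of different enzymes were compared as CPM per kilobase of the principal transcript, a level and not a difference. In V2084D labelled Huh7, PSAT1 stood at 304, PHGDH at 228, SHMT2 at 198, MTHFD1 at 136 and MTHFD2 at 89.1. MTHFD1L and SHMT1 were next to each other at 33.9 and 33.0, then PSPH at 21.9, ALDH1L2 at 15.8 and MTHFD2L at 5.49. In WT labelled Huh7 the order at the top was MTHFD1 at 140, PHGDH at 136, SHMT2 at 116 and PSAT1 at 97.7, and ALDH1L2 was last at 4.20. With the length of all annotated exons in place of the principal transcript, PSAT1 led in V2084D and WT alike, at 304 and 97.7, while PHGDH was at 63.9 and 38.2. The place of PHGDH thus depends on the length used, 2585 or 9217 bases.

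Other genes of the pathway moved in both directions. Of 41 other serine, glycine and folate genes, 39 were tested in the libraries labelled Huh7. In V2084D minus WT 7 of the 39 rose and 12 fell, where 22% of all genes rose and 20% fell, with a median log2 difference of -0.12, against 0.03 over all genes. CTH, which makes cysteine from cystathionine, had 134, 132 and 113 CPM in V2084D, against 15.4, 17.2 and 17.5 CPM in WT (2.92, SE 0.09, adjusted p = 1.55e-08). SRR, which makes D-serine, rose by 1.49 (SE 0.08, adjusted p = 3.97e-07). In the other direction MAT2A, which makes S-adenosylmethionine, had 118, 120 and 109 CPM in V2084D, against 286, 290 and 277 CPM in WT (-1.30, SE 0.07, adjusted p = 6.83e-07). PFAS, an enzyme of purine synthesis, fell by 1.04 (SE 0.08, adjusted p = 4.33e-06).

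In V2084D with STUB1 knockdown minus V2084D alone, 13 of the 39 rose and 3 fell, where 10.8% of all genes were called in each direction, with a median of 0.15, against -0.0035 over all genes. SFXN2, a mitochondrial carrier of the sideroflexin family, had 50.5, 52.9 and 50.2 CPM in shSTUB1, against 22.9, 24.5 and 27.3 CPM in V2084D (1.04, SE 0.07, adjusted p = 2.62e-05). MTHFS, which returns 5-formyltetrahydrofolate to the cycle, rose by 0.92 (SE 0.09, adjusted p = 0.00018), and PFAS by 0.65 (SE 0.08, adjusted p = 0.000458). The folate carriers SLC46A1 of the plasma membrane and SLC25A32 of mitochondria rose by 0.59 (SE 0.08) and 0.55 (SE 0.08), and ADSL, another purine enzyme, by 0.46 (SE 0.09). Against WT, shSTUB1 libraries had 13 of the 39 higher and 9 lower, where 23.5% of all genes were higher and 21.7% lower. CTH was higher there by 2.89 (SE 0.09) and SRR by 1.27 (SE 0.08), while MAT2A was lower, at -1.01 (SE 0.07), and so was GLDC, the glycine decarboxylase, at -1.44 (SE 0.10). In the libraries labelled 293T, K2025E minus KO had 3 of 40 higher (MTHFS at 0.83, ADSL at 0.69 and SDSL at 1.17) and 1 lower, the methionine synthase gene MTR at -0.71. Of all genes 7.17% were higher there and 5.72% lower. In the other 9 comparisons labelled 293T 0 of 40 were called, where 0% to 3.57% of all genes were.

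Between the labels, 5 of the 40 genes had a larger V2084D difference in the libraries labelled Huh7 and 4 a smaller one (edgeR, fit of all libraries). Over all genes 5.5% had a larger one and 4.21% a smaller one. The difference of the differences was 3.04 for CTH, 2.43 for DMGDH and 1.73 for SARDH, which remove methyl groups from dimethylglycine and sarcosine in mitochondria, and 1.44 for SRR, and it was -1.54 for MAT2A and -1.14 for PFAS (adjusted p at most 0.00542). Between the WT groups 7 of the 40 were higher under the label Huh7 and 3 lower, where 10.5% and 12.5% of all genes were. GLDC was higher by 1.49, SFXN3, another sideroflexin, by 1.24 and MTFMT, which formylates the mitochondrial initiator tRNA, by 0.86, while SLC46A1 was lower, at -0.76 (adjusted p at most 0.000145). Of the 11 factors described next, EIF2AK4 was higher there by 0.94 and ATF4 lower, at -0.64 (adjusted p at most 0.000265), and the ATF4 difference of differences for V2084D was 0.36 (adjusted p = 0.181).

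**Figure D4:**
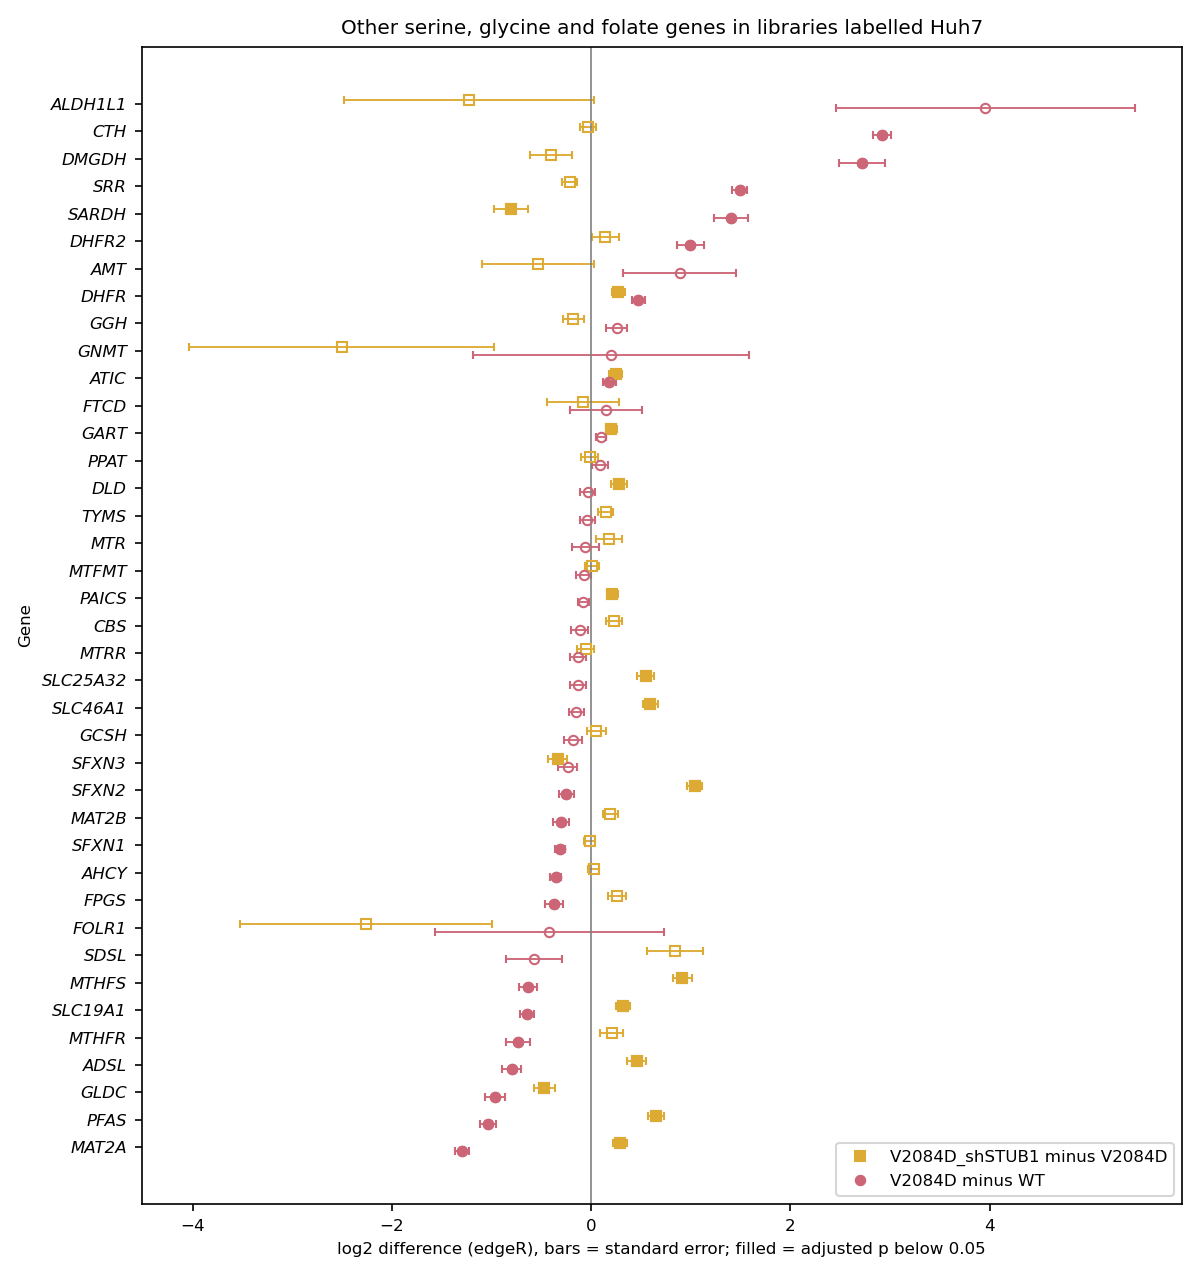
Log2 difference (horizontal axis, with SE bars) of the 39 other serine, glycine and folate genes tested in the libraries labelled Huh7, for V2084D_shSTUB1 minus V2084D (squares) and V2084D minus WT (circles), filled at an adjusted p below 0.05 and ordered by V2084D minus WT. CTH (2.92) lies near the top and MAT2A (-1.30) at the bottom, with filled circles on both sides of 0.

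Transcripts of 11 factors known to act on the pathway were read in the same fits. ATF4 had 855, 841 and 840 CPM in V2084D labelled Huh7, against 710, 702 and 746 CPM in WT. It was higher without overlap, by 0.23 (SE 0.05, adjusted p = 0.00453). It had 723, 786 and 695 CPM in shSTUB1, and fell by 0.20 against V2084D (SE 0.05, adjusted p = 0.0205). Of the 4 enzymes named above as ATF4 targets, PHGDH fell in that comparison (-0.21), SHMT2 (0.16) and MTHFD2 (0.24) rose, all 3 narrowly, and PSAT1 (-0.05) did not pass the test. Against WT the ATF4 difference in shSTUB1 was 0.03 (SE 0.05, adjusted p = 0.680), in libraries where 7 of the 10 enzymes were higher. As stated above, ATF4 is translated under stress, so its transcript level does not give its activity. The part of ATF4 in the enzyme differences was not tested. Of the 11 factors 0 rose and 2 fell in shSTUB1 minus V2084D, where 10.8% of all genes were called in each direction. In V2084D minus WT 3 of the 11 rose and 3 fell, where 22% of all genes rose and 20% fell. The 3 that rose were ATF4, DDIT3 and CEBPB, and the 3 that fell are not named here. DDIT3, a stress-induced partner of C/EBP factors, rose by 1.54 (SE 0.10, adjusted p = 1.81e-06) and CEBPB by 1.35 (SE 0.11, adjusted p = 5.15e-06). In shSTUB1 minus WT 3 of the 11 rose and 3 fell, where 23.5% of all genes were higher and 21.7% lower. CEBPB was higher there by 1.60 (SE 0.11) and ATF5 lower, at -1.16 (SE 0.09).

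ATF4 in the libraries labelled 293T averaged 1006 CPM in V2084D (SD 83.8), 1028 in G2087E (SD 63.5), 915 in G2087R (SD 50.1), 1310 in K2025E (SD 169) and 1078 in WT (SD 103), against 721 CPM in KO (SD 91.7). All libraries labelled with an added ARID1A were above all KO libraries, and these include G2087R replicates 1 and 2, whose ARID1A level goes against the label. The groups share the same KO libraries, and 5.41% (G2087R) to 16% (K2025E) of all genes were higher than KO without overlap in a group. The share of genes above KO in all groups at once was not counted, here or for SHMT2. In K2025E minus KO it was higher by 0.86 (SE 0.14, adjusted p = 0.00674), the largest ATF4 difference of the 15 comparisons. Of the 4 enzymes named above as ATF4 targets, SHMT2 rose there (0.63), and PHGDH (0.58), MTHFD2 (0.03) and PSAT1 (-0.0048) did not pass the test. Here too only the ATF4 transcript was read, and the part of ATF4 in these values was not tested. EIF2AK4, the kinase that senses uncharged tRNA, was lower in that comparison, at -0.51 (SE 0.15, adjusted p = 0.0381). In the other 9 comparisons ATF4 was not called, at 0.34 to 0.58 against KO, -0.24 to 0.28 against WT and 0.36 in K2025E minus the mean of V2084D and G2087E.

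The genes most like an enzyme were ranked by the root mean square difference of log2 CPM, each gene centred on its own mean, over the libraries of a line. Over the 9 libraries labelled Huh7, PSAT1 was closest to RMI2 (0.10), PTP4A3 (0.10) and TES (0.10), MTHFD2 to GTF2H3 (0.05), ARL6IP6 (0.06) and ZFAND1 (0.06), and PHGDH to PHYHD1 (0.05), RPS2P46 (0.05) and UBE2L6 (0.06). Over the 18 libraries labelled 293T, PSAT1 was closest to CDCA7 (0.11), PRKCQ-AS1 (0.11) and GMPS (0.13), MTHFD2 to PSME3 (0.10), DLD (0.10) and PITPNB (0.10), and PHGDH to UBAC1 (0.04), FADD (0.06) and RNF187 (0.07). None of the enzymes was among these nearest genes in either line, but only the 3 nearest of at least 6643 candidates were kept. Genes with an SD below 0.8 of that of the enzyme were left out. Under the label Huh7 this barred MTHFD2 (SD 0.58) and PHGDH (SD 0.33) from the list of PSAT1 (SD 0.80). The absence therefore does not show whether the enzymes vary together.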

How the data were processed

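RNA sequencing libraries were made from total RNA with the NEBNext Ultra II kit, per the labels. The authors deposited 1 table of raw counts per gene for each line, and the submitters' processing notes name GRCh38 and edgeR. The aligner, counter, annotation and strand setting are not given in the sources used here. All columns matched a sample. The 10 enzymes and the lists were chosen with earlier results of these data known.

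The test was the quasi-likelihood F test of edgeR 4.0.16 under R 4.3.3, after TMM scaling and filterByExpr at a minimum count of 10, with all groups of a line in 1 fit of 23201 genes (293T) or 22510 (Huh7), and all 27 libraries in 1 fit of 24546 for comparisons between the labels 293T and Huh7. Calls were made below an adjusted p of 0.05 (Benjamini-Hochberg, all tested genes). Each SE was derived from the log2 difference and F. The biological coefficient of variation was 30.9%, 24.8% and 30.3%. Replicate pairs differed by 11.1 to 310 times the counting variance, so the spread between samples limits the precision.

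Alternatives were RLE size factors, DESeq2 1.42.0, 2 other filters, the replicate number as a block, GC and length offsets, only the groups compared, and libraries left out. Deviations of libraries with equal replicate number correlated above 0.1 in every pair for G2087R minus WT alone (0.13, 0.18 and 0.32), so numbers pair samples there as a feature of the data. The labels give no pairing. Named genes are the 10 enzymes, ARID1A, STUB1, ATF4, called genes of the 2 lists (at most 6 per comparison by smallest adjusted p), and the 3 genes nearest in pattern to PHGDH, PSAT1 and MTHFD2, among genes whose SD was at least 0.8 of that of the enzyme. IRS4 was named after its values were seen.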

Additional observations from a re-analysis of the deposited data

Results flagged for a closer look

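For 6 of the 10 enzymes the change with V2084D differed between the libraries labelled Huh7 and those labelled 293T by a test of the difference itself, V2084D minus WT under the first label minus the same under the second. All 6 were larger under the label Huh7, where 9.72% of all genes were called, 5.5% in that direction. The markers go against the label Huh7, so whether these are different lines is in doubt. The values on the log2 scale were 1.66 for ALDH1L2, 1.64 for PSAT1, 0.92 for MTHFD2, 0.85 for PHGDH, 0.82 for PSPH and 0.80 for SHMT2 (edgeR, adjusted p from 0.00188 to 0.0324). The PHGDH call held in 12 of 21 alternative settings and the MTHFD2 call in 20 of 21. In the libraries labelled Huh7 these 6 enzymes were higher in V2084D in 3 of 3 libraries without overlap, where 28.5% of all genes were. The libraries labelled 293T overlapped between V2084D and WT.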

How the results depend on the processing

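Over the 10 enzymes and 15 comparisons, 2340 values were recomputed. Of these 2243 kept their side of the threshold and were not counted as reversed, 182 of them with a change of sign in a value that was not called. A call was lost by 46 and gained by 42. Another 9 reversed, which were values larger than their SE that changed sign and stayed uncalled. In K2025E minus KO, with 1 enzyme called, DESeq2 called 4, a filter of 1 CPM 2, the replicate block 3, GC and length offsets 3, these offsets with the replicate block 5, the fit of only the groups compared 0, and fits without 1 library 0 to 4, while 0 were called without K2025E replicates 2 and 3. In K2025E minus the mean of V2084D and G2087E, with 0 called, DESeq2 called 1, the offsets 1, the offsets with the block 2 and fits without 1 library 0 to 1. In shSTUB1 minus V2084D, with 6 called, the fit of only the groups compared called 3 and fits without 1 library 3 to 6. In WT labelled Huh7 minus WT labelled 293T, with 2 called, DESeq2 called 4. The reversals were PHGDH (-0.11) and SHMT1 (-0.22) in G2087R minus KO and PSPH (-0.0801) in G2087R minus WT, all without G2087R replicates 1 and 2. ALDH1L2 in K2025E minus WT (0.25) and MTHFD2L in K2025E minus the mean (0.0198) reversed without K2025E replicates 2 and 3. MTHFD2L also reversed with the offsets and with the offsets and block, at 0.0585 and 0.0566 in K2025E minus KO and 0.26 for both in K2025E minus the mean. Besides the counts above, the block changed no count of called enzymes by over 1.5 times. It left 0 called in G2087R minus WT, the 1 comparison whose replicate numbers pair in the data. The cause of these changes was not tested.

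Counts over all genes moved more. In K2025E minus KO 2989 genes were called, but 4527 by DESeq2, 4805 with the offsets and block, 436 with only the groups compared and 1 to 5270 without 1 library. In K2025E minus the mean 829 were called, but 2941 by DESeq2, 287 with no filter, 1343 with the 1 CPM filter, 1575 with the offsets, 2957 with the offsets and block, 9 with only the groups compared, 467 without G2087R replicates 1 and 2 and 0 to 4230 without 1 library. Of the comparisons labelled 293T with 0 or 1 genes called, DESeq2 called 14 to 70, the offsets with the block gave 273 in WT minus KO and 49 in G2087R minus WT, and G2087R minus WT had 18 without G2087R replicate 3 and K2025E minus WT 1048 without K2025E replicate 1. In shSTUB1 minus V2084D 4850 were called, but 2887 without V2084D replicate 1 and 3140 without shSTUB1 replicate 1. Between the labels the block gave 3307 in place of 5638 for WT, and the offsets 4229, or 5284 with the block, in place of 2385 for the V2084D difference. Each enzyme had at least 372 counts in every library, so the spread over 3 libraries a group, more than depth, set the precision. Leaving out these pairs of K2025E and G2087R libraries was chosen with earlier results of these data known.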

Other observations

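In the libraries labelled 293T, replicate 3 was the lowest of its group in 6 of 6 groups for PSAT1, PSPH, SHMT1 and MTHFD1L, which is 4 of the 10 enzymes. This held for 2.22% of the 23201 genes tested, against 0.302% for replicate 1 and 0.228% for replicate 2. The labels name no batch by replicate number, and the source of this pattern was not tested.

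Over all libraries of a line, ALDH1L2 had the widest range of the 10 enzymes. It ran from 28.98 to 152 CPM (5.26-fold) over the 9 libraries labelled Huh7 and from 18.7 to 51.2 CPM (2.73-fold) over the 18 libraries labelled 293T. MTHFD1 had the narrowest, at 1.24-fold and 1.26-fold.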
